A study of Homo sapiens with 12 samples.

Results

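HepG2 cells exposed to glycyrrhizin were compared with control HepG2 cells on 6 of the 12 arrays of the series: 3 arrays titled Gly and 3 titled Mock. Glycyrrhizin is the sweet triterpenoid saponin of licorice root, used in some countries as a treatment for chronic liver disease. Its aglycone blocks 11beta-hydroxysteroid dehydrogenase, which interconverts cortisol and cortisone, and glycyrrhizin itself binds the chromatin and alarm protein HMGB1. HepG2 is a line grown from a human liver carcinoma. It keeps many secretory functions of hepatocytes and has low activity of most drug-metabolising cytochrome P450 enzymes.

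The glycyrrhizin group received 25 µM glycyrrhizin, and the control group, whose agent is given as Ctrl, received none of the study's agents. The control's vehicle and the length of treatment are not known here. The remaining 6 arrays held cells given 25 µM silymarin or 25 µM ursodeoxycholic acid, 3 arrays each. All cells grew in the same serum-supplemented medium, and each array carried 1 Cy5-labelled RNA sample. No label says that the 3 samples of a group came from separate cultures, so the spread between them, and every p-value here, may be technical.

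Of 27561 probes on the array, 15650 had a gene symbol, and the brightest probe of each gene gave 13881 genes. A gene was called bright when its log2 intensity averaged more than 8 over the 12 arrays. That held for 3904 genes (28.1%), and the other 9977 genes were called dim. DNPH1 lay nearest the threshold on the bright side and TAF5L on the dim side. The median SD between arrays of 1 group was 0.244 on the log2 scale in bright genes and 0.507 in dim genes, so a difference of a given size was better measured in bright genes. Array medians ran from 85.8 to 86.6 intensity units. Across all 27561 probes, the log2 values of the glycyrrhizin arrays correlated with each other at 0.942 to 0.948. Those of the control arrays did so at 0.921 to 0.936, and glycyrrhizin with control arrays at 0.922 to 0.947.

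Markers of the cell line were checked first. Of 19 measured hepatocyte markers only APOB, the structural protein of very-low-density lipoprotein, was bright. Of 13 measured neuroblast markers, by contrast, 8 were bright. Bright markers numbered 3 of 8 for leukocytes, 2 of 7 for endothelial cells, 1 of 8 for fibroblasts and stellate cells and 0 of 6 for cholangiocytes. Why more of the neuroblast list than of the hepatocyte list was bright was not tested. Probe intensities cannot be set against each other as transcript levels, so the signal could not check the cell type and the identity of the cells rests on their label. Summed intensity of the hepatocyte list was 2045 to 2189 in glycyrrhizin cells and 2073 to 2289 in control cells. Leukocyte markers summed to 2851 to 3519 in glycyrrhizin cells and 2389 to 2854 in control cells, with all 8 above control on average and none at an unadjusted p under 0.05. For fibroblast and stellate markers the sums were 1986 to 2234 in glycyrrhizin cells and 1586 to 1950 in control cells, with 7 of 8 above control. Endothelial markers summed to 1923 to 2146 in glycyrrhizin cells and 1559 to 1891 in control cells. The 6 cholangiocyte markers summed to 605 to 655 in glycyrrhizin cells and 725 to 958 in control cells. Neuroblast markers summed to 11195 to 14638 in glycyrrhizin cells and 10243 to 11975 in control cells. No marker was at an intensity of 0, the lowest value in the table being 1, and the part of these lists in the results was not tested. In such whole-culture RNA, fewer cells of a type and less RNA per cell cannot be told apart.

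In glycyrrhizin cells a small set of bright genes lay about 2-fold to 3-fold below control. They included MIEN1 (a membrane-anchored promoter of cell migration), CLCN2 (a plasma membrane chloride channel), CYP1A2 (a xenobiotic-metabolising P450), HIPK3 (a nuclear serine/threonine kinase), SYNE2 (a nuclear envelope linker) and MTERF3 (a repressor of mitochondrial transcription). On the high side PFKL, the liver subunit of phosphofructokinase, had the smallest p among bright genes. One gene, MIEN1, passed the test, limma's moderated test with Benjamini-Hochberg adjustment over all 13881 genes at 0.05, which is 0.0072% of the genes. With the prior variance allowed to follow the mean intensity under robust estimation, called the variance trend below, 16 genes were lower (0.115%) and 1 was higher (0.0072%). MIEN1 had an adjusted p of 0.0512 when the prior was estimated over all probes, a setting chosen after seeing the data. Without any 1 of the 6 arrays MIEN1 had an adjusted p of 0.0924 to 0.185 and no gene passed. The 17 genes of the variance trend became 4 without glycyrrhizin replicate 1, 58 without glycyrrhizin replicate 2, 6 without glycyrrhizin replicate 3, 7 without control replicate 1 and 5 without control replicate 3.

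Large differences in bright genes were mostly on the low side. Of the 3904 bright genes, 36 lay past a 2-fold difference on the low side in glycyrrhizin cells and 2 on the high side. Of the 36, the ursodeoxycholic acid mean was also below control in 34 and the silymarin mean in 8. The glycyrrhizin mean was below the ursodeoxycholic acid mean in 34 and below the silymarin mean in all 36. The 36 were chosen by their glycyrrhizin and control means, which by itself favours these orders, so the counts are a description. The edge of the 36 was PLA2G5 at a log2 difference of -1.01, with HAT1 at -0.998 just outside. At an unadjusted p under 0.05, 186 bright genes were lower (4.76%) and 91 were higher (2.33%). By separation of the arrays the order was the other way: all glycyrrhizin arrays lay below all control arrays in 300 bright genes (7.68%) and above them in 400 (10.2%). The median difference was 0.01 over bright genes. In dim genes the same test gave 264 lower (2.65%) and 251 higher (2.52%). Of the 9977 dim genes, 275 lay past 2-fold lower and 222 past 2-fold higher. Over all genes, 792 stood at an unadjusted p under 0.05 (5.71%), 450 of them lower (3.24%) and 342 higher (2.46%), where 694 would be the average with no difference anywhere.

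The large differences were not shared evenly by the glycyrrhizin arrays. Among the 186 bright genes at an unadjusted p under 0.05 on the low side, the lowest glycyrrhizin array was replicate 3 in 123 genes, replicate 1 in 50 and replicate 2 in 13. Among the 91 on the high side, the highest was replicate 3 in 55 genes, replicate 1 in 23 and replicate 2 in 13. The 186 and 91 became 292 and 53 without glycyrrhizin replicate 2, 90 and 27 without glycyrrhizin replicate 3, and 111 and 73 without control replicate 3. Without glycyrrhizin replicate 2 the count past 2-fold was 80 lower and 2 higher. Without control replicate 3 it was 27 lower and 14 higher, and without control replicate 2 it was 45 lower and 7 higher.

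**Figure D1:**
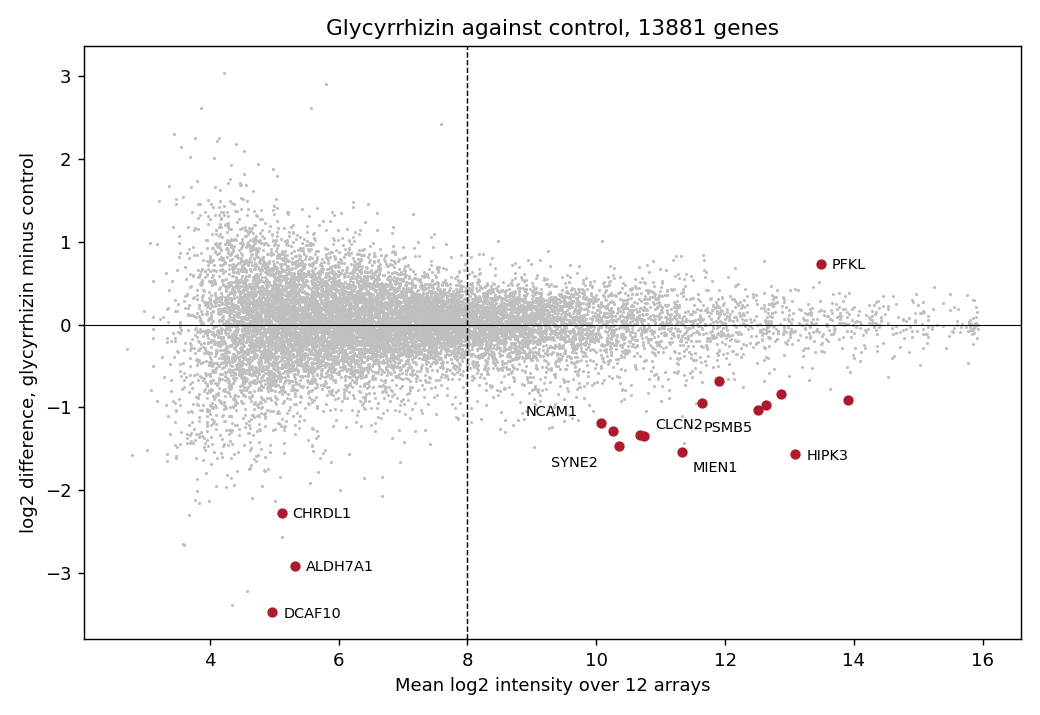
Difference between glycyrrhizin and control cells (log2, mean of 3 arrays each) against mean log2 intensity over 12 arrays for 13881 genes. Dashed line, the bright threshold of 8. Filled points, the 17 genes past the threshold with the variance trend, of which 16 lie below 0 and PFKL above.

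MIEN1 had the smallest p of all genes tested (limma). Its log2 intensity was 10.58, 10.38 and 10.49 in glycyrrhizin cells, against 12.04, 12.02 and 12.02 in control cells. The groups were more than 1 log2 unit apart and each was tight. MIEN1 fell by 1.54 on the log2 scale (SE 0.17, adjusted p 0.0295, limma), 2.92-fold lower in glycyrrhizin cells. Its gene lies beside ERBB2 on chromosome 17, and of 14 measured neighbours in that band, MIEN1 included, 10 were below control and only MIEN1 had an unadjusted p under 0.05. STARD3, a cholesterol transporter of late endosomes in that band, differed by -0.40 (SE 0.19, unadjusted p 0.062, limma).

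CLCN2 gave 10.16, 10.08 and 9.89 in glycyrrhizin cells and 11.38, 11.42 and 11.37 in control cells, again with no overlap. The difference was -1.34 (SE 0.17), with an adjusted p of 0.0595 in limma and 6.45e-04 with the variance trend. CYP1A2 stood at 10.26, 9.79 and 9.89 in glycyrrhizin cells against 11.35, 11.39 and 11.20 in control cells. It differed by -1.33 (SE 0.20, adjusted p 0.129, 0.00490 with the variance trend, limma). HIPK3 was at 12.42, 12.18 and 11.56 in glycyrrhizin cells and 13.29, 13.65 and 13.91 in control cells. Its arrays were more scattered, and its difference was -1.56 (SE 0.25, adjusted p 0.161, 0.00545 with the variance trend, limma). A second, dim HIPK3 probe differed by -0.55. MIEN1, CLCN2, CYP1A2 and HIPK3 were the 4 genes that passed with the variance trend in all 6 fits that left out 1 glycyrrhizin or control array.

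The next genes on the low side had the same form with more spread. SYNE2 was at 9.75, 10.11 and 9.69 in glycyrrhizin cells and 11.22, 11.20 and 11.53 in control cells. MTERF3 was at 9.51, 9.40 and 9.15 in glycyrrhizin cells against 10.82, 10.25 and 10.83 in control cells. NCAM1, a neural cell adhesion molecule, was at 8.90, 9.54 and 8.97 in glycyrrhizin cells and 10.45, 10.19 and 10.33 in control cells. All 3 genes separated the groups on every array, by -1.46, -1.28 and -1.19 on average. PSMB5, the chymotrypsin-like catalytic subunit of the proteasome, gave 11.72, 12.04 and 11.39 in glycyrrhizin cells and 12.96, 12.54 and 12.76 in control cells. CKS1B, a small partner of cyclin-dependent kinases, gave 12.04, 12.30 and 12.02 in glycyrrhizin cells against 13.11, 12.90 and 13.24 in control cells. OAF, a secreted protein, differed by -0.94, FNTA, the shared alpha subunit of protein prenyltransferases, by -0.84, RAB5B, an early endosome GTPase, by -0.91, and ZBTB20, a zinc finger repressor active in liver, by -0.69. These 9 genes passed with the variance trend (adjusted p 0.0110 to 0.0414, limma). Each lost that call in at least 3 of the 6 fits that left out 1 array, ZBTB20 in all 6. The 2 remaining genes among the 12 bright ones of smallest p did not pass there. LONRF1, a ring finger protein with a LON domain, differed by -1.13 (adjusted p 0.0688 with the variance trend, limma) and MAP4K4, a kinase upstream of JNK, by -1.15 (adjusted p 0.0974).

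PFKL had the smallest p of the higher bright genes. Its log2 intensity was 14.09, 13.93 and 13.95 in glycyrrhizin cells against 13.19, 13.35 and 13.23 in control cells, without overlap. The difference was 0.73 (SE 0.16, 1.66-fold, adjusted p 0.419, 0.00731 with the variance trend, limma). It lost the call in 1 of the 6 fits without an array (adjusted p 0.0530), and a second bright PFKL probe differed by 0.37.

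The other 11 bright genes of smallest p on the high side differed by 0.55 to 0.85, and none passed with the variance trend over all genes. FRS3, an adaptor of fibroblast growth factor receptors, was at 12.24, 12.27 and 12.16 in glycyrrhizin cells and 11.23, 11.66 and 11.45 in control cells. OLFM2, a secreted olfactomedin, was at 12.64, 12.61 and 12.76 in glycyrrhizin cells and 11.86, 12.04 and 12.06 in control cells. SLC10A3, a member of the bile acid transporter family with no established substrate, was at 11.30, 11.02 and 11.30 in glycyrrhizin cells and 10.35, 10.65 and 10.55 in control cells. Each separated the groups completely, but a second bright SLC10A3 probe showed a difference of 0.00. INPP4A, a phosphoinositide phosphatase, differed by 0.82 on its brightest probe and by 0.02 on the other. KRT10, a keratin, differed by 0.85 and SSTR5, a somatostatin receptor, by 0.84. The sodium channel SCN1A (0.58), the dynein-linked trafficking factor EIPR1 (0.57), the splicing coactivator SRRM1 (0.68), the membrane protein TMEM145 (0.55) and the serpin SERPINB5 (0.67) completed the set.

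**Figure D2:**
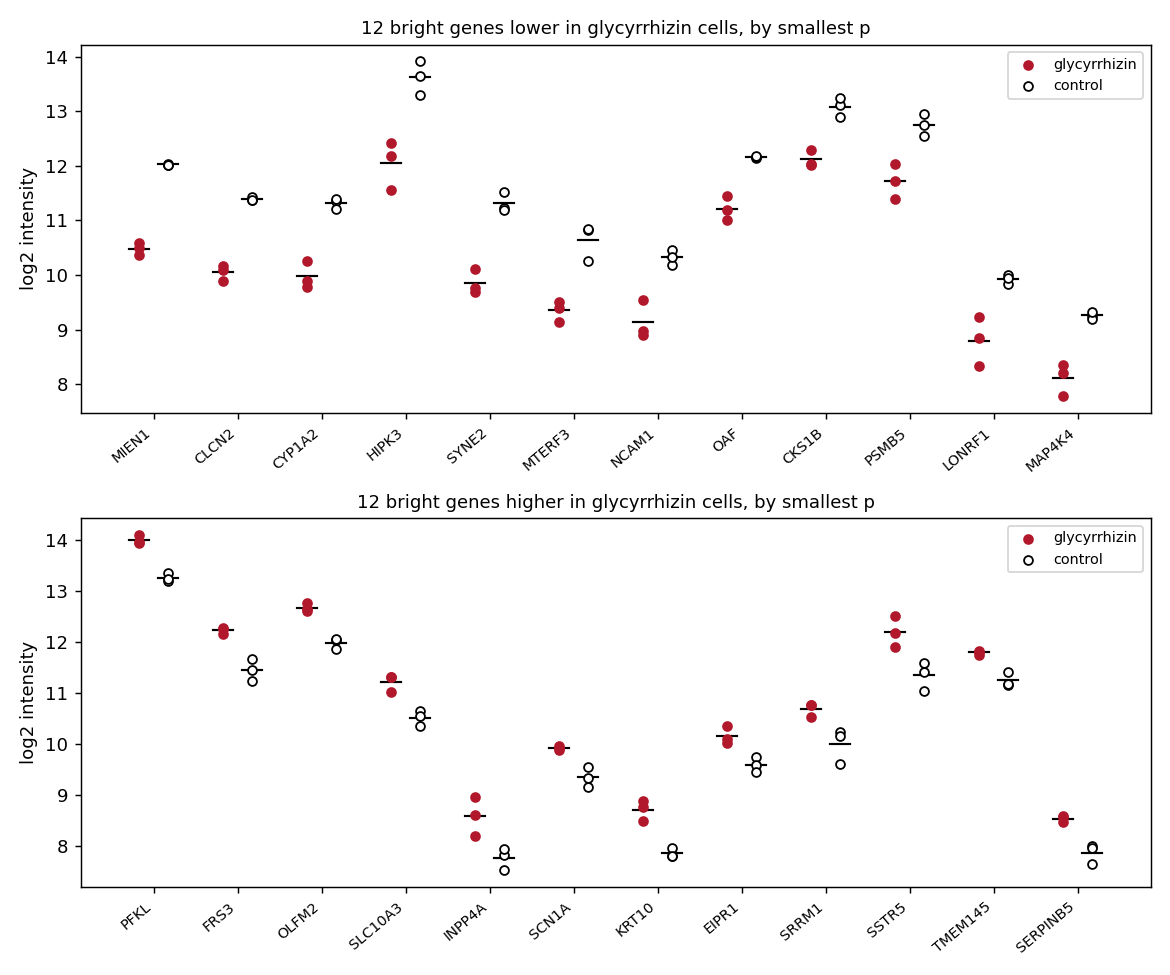
Log2 intensity on each array of the 12 bright genes of smallest p on the low side (upper panel) and the high side (lower panel). Filled circles, glycyrrhizin; open circles, control; bars, means of 3 arrays. All 24 genes separate the groups on every array.

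Dim genes gave larger fold values with wider spread. No background level or detection call was used for these arrays, so the values near the bottom of the range may be at the floor and the sizes below are uncertain. DCAF10 and ZNF320 shared the value 2.10 on glycyrrhizin replicate 1. DCAF10, a substrate receptor of CUL4 ubiquitin ligases, was at 2.10, 3.37 and 4.19 in glycyrrhizin cells and 5.88, 6.65 and 7.56 in control cells. ALDH7A1, which breaks down lysine-derived aldehydes, was at 2.98, 4.39 and 3.83 in glycyrrhizin cells and 6.97, 5.90 and 7.09 in control cells. CHRDL1, a secreted antagonist of bone morphogenetic proteins, was at 3.98, 4.58 and 4.47 in glycyrrhizin cells and 6.02, 6.46 and 7.37 in control cells. These were the 3 dim genes that passed with the variance trend (adjusted p 0.0157, 0.0375 and 0.0375, limma), at differences of -3.48, -2.92 and -2.27. A second DCAF10 probe differed by -2.49. ZNF320, a zinc finger protein, differed by -3.22 and ERF, an ETS-family repressor, by -1.99, with no call. On the high side, SYCE2 of the synaptonemal complex differed by 1.72, the endothelial GTPase RHOJ by 1.76, FNDC8 by 1.32, the ubiquitin conjugase UBE2N by 2.10 and the intestinal peptide transporter SLC15A1 by 1.40. All 10 of these dim genes separated the groups. In all 10, the silymarin and ursodeoxycholic acid means also lay on the glycyrrhizin side of the control mean. The 10 were chosen by p against the same control arrays, which by itself favours this order, so it is a description. CHRDL1 averaged 4.35 in glycyrrhizin cells, 4.71 in silymarin cells, 4.79 in ursodeoxycholic acid cells and 6.62 in control cells. SYCE2 averaged 4.74, 5.21, 4.90 and 3.02 in that order, and RHOJ 4.82, 4.80, 4.55 and 3.06. DCAF10 was lower in glycyrrhizin cells (3.22) than in silymarin (5.25) or ursodeoxycholic acid cells (4.72).

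The promoter windows of the 3 bright genes lowest by p and of PFKL are shown to place them in the genome. They come from RefSeq (GRCh38.p14) and span 250 bases before to 50 bases after the gene's start, 5′ to 3′ on the gene's strand. Capitals mark GC boxes, the letters GGGCGG on either strand (CCGCCC on the other), which SP and KLF factors can bind. Overlapping matches were counted separately.
MIEN1, chr17:39730483-39730782, minus strand: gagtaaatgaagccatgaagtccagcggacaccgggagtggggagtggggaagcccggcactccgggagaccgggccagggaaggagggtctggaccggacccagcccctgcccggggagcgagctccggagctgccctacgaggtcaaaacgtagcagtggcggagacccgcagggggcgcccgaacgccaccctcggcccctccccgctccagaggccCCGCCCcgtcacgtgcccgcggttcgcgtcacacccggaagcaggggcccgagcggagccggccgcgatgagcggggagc
CLCN2, chr3:184361556-184361855, minus strand: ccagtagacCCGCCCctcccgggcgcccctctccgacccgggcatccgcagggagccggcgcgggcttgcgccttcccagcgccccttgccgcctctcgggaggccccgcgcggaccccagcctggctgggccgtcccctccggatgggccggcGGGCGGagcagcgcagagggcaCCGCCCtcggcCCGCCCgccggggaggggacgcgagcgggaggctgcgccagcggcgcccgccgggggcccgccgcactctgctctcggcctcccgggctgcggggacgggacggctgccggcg
CYP1A2, chr15:74748595-74748894, plus strand: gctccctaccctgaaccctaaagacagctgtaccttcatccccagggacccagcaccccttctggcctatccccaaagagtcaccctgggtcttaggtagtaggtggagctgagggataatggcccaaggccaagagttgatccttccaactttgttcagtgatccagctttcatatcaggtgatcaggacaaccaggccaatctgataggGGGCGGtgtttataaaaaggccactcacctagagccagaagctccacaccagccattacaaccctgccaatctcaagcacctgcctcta
PFKL, chr21:44299803-44300102, plus strand: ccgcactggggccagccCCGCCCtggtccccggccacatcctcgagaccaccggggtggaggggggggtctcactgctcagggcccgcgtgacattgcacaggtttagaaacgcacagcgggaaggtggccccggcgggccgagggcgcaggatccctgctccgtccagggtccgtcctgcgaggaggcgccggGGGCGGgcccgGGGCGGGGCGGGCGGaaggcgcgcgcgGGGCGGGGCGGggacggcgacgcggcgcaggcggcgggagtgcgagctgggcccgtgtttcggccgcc
The windows held 1, 4, 1 and 7 GC boxes. Of all 35116 RefSeq windows 45.0% held at least 1, and of the 3160 bright genes with a window 74.9% did, so the letters are common and lower and higher genes both carry them.

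Xenobiotic metabolism was described first among the functions, since the aryl hydrocarbon receptor and its P450 targets are the cell's sensor of planar foreign compounds. Of 7 measured members of that pathway, 2 were bright and lower at an unadjusted p under 0.05, both of them P450 targets, against 4.76% of bright genes. The pathway's median was -0.17 and ran from -0.52 to 0.16 without 1 array. CYP1B1 was at 8.05, 8.23 and 8.06 in glycyrrhizin cells and 9.06, 8.71 and 8.73 in control cells, a separation on every array with a difference of -0.72 (SE 0.18, adjusted p 0.574, limma). The receptor AHR differed by 0.26 and its partner ARNT by 0.23, neither near the threshold. Over 43 measured P450 genes, the 17 bright ones split 8 higher and 9 lower with a median of 0.00, and CYP3A4, the main drug-metabolising P450 of adult liver, was dim and differed by 0.05 (SE 0.65). Of 26 phase II conjugating enzymes, none stood at an unadjusted p under 0.05.

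Among known targets and partners of glycyrrhizin, HSD11B1, NR3C1, NR3C2, HMGB1, TLR4, RELA, NFKB1 and PPARG had no unadjusted p under 0.05 (limma). HSD11B1, the enzyme that regenerates cortisol, was dim at 6.28, 6.04 and 5.42 in glycyrrhizin cells and 5.82, 5.34 and 5.37 in control cells, with overlap. The glucocorticoid receptor NR3C1 differed by 0.50 (SE 0.88) and the mineralocorticoid receptor NR3C2 by 0.84 (SE 0.50), both dim. Their 95% intervals were wide, at -1.45 to 2.45 and -0.26 to 1.94, so sizable differences could be missed. HMGB1 was among the brightest genes of the table at 15.66, 15.90 and 15.73 in glycyrrhizin cells and 15.35, 15.67 and 15.71 in control cells. Its difference was 0.19 (95% interval -0.20 to 0.57), and its 2 dimmer probes gave 0.20 and 0.00. Its receptor TLR4 differed by -0.14, and the NF-kB subunits RELA and NFKB1 by 0.12 and -0.01. Within the HMGB1 and Toll-like receptor list of 17, the dim co-receptor LY96 (1.53) and adaptor MYD88 (0.70) had an unadjusted p under 0.05, on the high side. The 18 measured genes of cortisol activation, corticosteroid receptors and glucocorticoid response split 9 higher and 9 lower, with the receptor chaperone FKBP4 at -0.71 (unadjusted p 0.042, limma). PPARG differed by 0.51 (SE 0.39).

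None of the inflammatory lists held a gene past the threshold, with or without the variance trend. Of 47 bright cytokines and receptors 34 were higher and 13 lower with a median of 0.18, against a median of 0.01 over bright genes. The 103 dim ones split 51 higher and 52 lower with a median of -0.01, and all 150 had a median of 0.05. None of them passed. The 13 bright olfactory receptors, a family best known from the nose, had a median of 0.19 with 9 higher. The ST2 receptor IL1RL1 (0.56) and the costimulatory receptor TNFRSF18 (0.49) were higher at an unadjusted p under 0.05 and IL17B was lower (-0.79). In the NF-kB list 4 of 6 bright genes were higher, 3 above control on every array, with a median of 0.40. The 15 dim ones had a median of 0.00. IKBKB, the kinase that releases NF-kB, differed by 0.58 (unadjusted p 0.034, limma) and ICAM1, an adhesion target, by 1.02 (unadjusted p 0.10). ICAM1 was at 9.04, 8.91 and 8.85 in glycyrrhizin cells and 6.31, 8.62 and 8.82 in control cells. Its difference ran from 0.21 to 1.47 without 1 array. In the interferon list IRF1 differed by 0.42 (unadjusted p 0.035), and by -0.16 on a dim second probe. Among acute phase proteins the haem carrier HPX differed by 0.43 and the iron carrier TF by -0.74, and the fetal liver protein AFP was at 6.55, 6.27 and 5.93 in glycyrrhizin cells and 6.85, 6.89 and 7.18 in control cells. The leukocyte markers above moved the same way as the cytokine list, with a median of 0.32.

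Sugar metabolism held PFKL. Of 18 bright glycolysis genes 12 were higher and 6 lower, with a median of 0.05, and 4 were higher at an unadjusted p under 0.05 (22.2% of them, against 2.33% of bright genes). Beside PFKL these were ENO2, the neuronal enolase (0.53), HK1, a hexokinase (0.45), and GPI, phosphoglucose isomerase (0.60). ENO3, the muscle enolase, went the other way at 8.55, 9.02 and 8.09 in glycyrrhizin cells and 9.25, 9.24 and 9.60 in control cells (-0.81, unadjusted p 0.013, limma). UGP2, which makes UDP-glucose for glycogen, differed by -0.73. At the entry to the citric acid cycle, the pyruvate dehydrogenase subunits PDHA1 (0.63) and PDHB (-0.50) pointed in opposite directions, and OGDH, the 2-oxoglutarate dehydrogenase, differed by -0.47. The second PDHA1 probe, a dim one, gave -0.08.

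Mitochondrial lists differed in their bright medians. Of 30 bright respiratory chain genes 15 were higher and 15 lower, with a median of -0.01. NDUFB7 (-1.09) and NDUFS8 (-0.72) of complex I had an unadjusted p under 0.05 on the low side, and COX4I2 (0.52) on the high side. Mitochondrial ribosomal proteins had a bright median of -0.04. Of 16 bright genes of mitochondrial import and carriers 12 were higher and 4 lower, with a median of 0.14, while the 40 dim ones had a median of -0.09. SLC25A4, the ADP/ATP carrier of that list, was at 7.54, 8.54 and 7.88 in glycyrrhizin cells and 9.18, 8.98 and 9.27 in control cells, a difference of -1.16 (SE 0.28, adjusted p 0.523, limma). Of 5 bright genes of mitochondrial DNA expression 4 were lower, MTERF3 by the most.

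Lipid and bile acid genes had low p-values in both directions. Of 24 measured bile acid genes 7 were bright, 6 of them higher, with a median of 0.17, and none of the 7 had an unadjusted p under 0.05. The 4 of 24 that did, against 5.71% of all genes, were dim and split 2 and 2: BAAT (0.98) and SLC27A5 (0.97), which conjugate bile acids, were higher, and CYP7B1 (-0.97), an oxysterol hydroxylase, and ABCB4 (-1.04), the canalicular phospholipid exporter, were lower. Of 20 measured genes of fatty acid synthesis 3 had an unadjusted p under 0.05, against 5.71% of all genes. Of the 3, 2 were bright and lower and 1 was dim and higher. The malic enzyme ME1 (-0.54) and the elongase ELOVL1 (-0.49) were lower at an unadjusted p under 0.05. The bright acyl-CoA synthetase ACSL1 (0.47), not one of those 3, was higher at an unadjusted p under 0.05. In sterol synthesis the dim FDFT1, squalene synthase, differed by -1.28 and GGPS1, which makes the prenyl donor, by 1.36. FDFT1 averaged 6.20 in glycyrrhizin, 6.41 in silymarin, 6.14 in ursodeoxycholic acid and 7.48 in control cells. The 8 bright sterol genes had a median of -0.04.

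Of protein turnover genes, UBE2H, CUL1, PSMD14 and PSMB5 were among the 36 bright genes past 2-fold lower. Of 7 bright ubiquitin-conjugating enzymes 6 were lower, 4 of them below control on every array, with a median of -0.50. UBE2H was at 7.22, 8.53 and 7.46 in glycyrrhizin cells and 9.03, 8.75 and 9.20 in control cells, and UBE2V2, the partner of UBE2N, at 8.77, 9.34 and 8.55 in glycyrrhizin cells and 9.62, 9.82 and 10.10 in control cells. Both had an unadjusted p under 0.05 (28.6% of 7, against 4.76% of bright genes), at differences of -1.26 and -0.96, whereas the dim UBE2N differed by 2.10. Of 22 bright proteasome genes 12 were lower with a median of -0.07, and PSMB5, the lid deubiquitinase PSMD14 (-1.05) and the activator PSME4 (-0.69) had an unadjusted p under 0.05 (13.6%). CUL1, the scaffold of SCF ligases, was at 9.08, 8.68 and 7.97 in glycyrrhizin cells and 9.56, 9.94 and 9.94 in control cells, and COPS4 of the COP9 signalosome, which recycles cullins, differed by -0.90. The other bright cullin ligase genes leaned the other way, so the list had 20 higher and 11 lower.

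Trafficking and lysosomal genes included RAB21 (-0.46), SEC61A1, the channel of the endoplasmic reticulum (-0.58), COPB1 of the COPI coat (-0.51), ATP6V0D1 of the proton pump (-0.58) and MAP1LC3A, an autophagosome marker (-0.62, with 0.11 on a second bright probe), all at an unadjusted p under 0.05 and below control. At that p, 3 of 46 bright endoplasmic reticulum and Golgi genes and 2 of 13 bright Rab genes were lower. So were 1 of 20 bright lysosomal and 1 of 12 bright autophagy genes, against 4.76% of bright genes. In each of these lists 0 bright genes were higher. The bright medians of these lists lay between -0.02 and 0.05.

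Among signalling kinases, 16 of 23 bright MAPK pathway genes were lower and 7 higher, with a median of -0.11. MAP4K4 and MAPK3, the kinase ERK1, had an unadjusted p under 0.05, and MAPK3 overlapped, at 9.83, 11.48 and 10.35 in glycyrrhizin cells and 11.71, 11.45 and 11.81 in control cells. In the dim range MAP3K7, the kinase TAK1, differed by -2.57 on its brightest probe and by 0.70 on the other. On the brightest probe it averaged 4.40 in glycyrrhizin, 4.56 in silymarin, 4.57 in ursodeoxycholic acid and 6.96 in control cells. In the PI3K and mTOR list 12 of 18 bright genes were lower, with RPS6KB1, the ribosomal S6 kinase, at -0.74 and its dim second probe at 0.05. At an unadjusted p under 0.05 that list had 1 bright gene lower and 1 higher. The 13 bright growth factors and receptors split 6 higher and 7 lower with a median of -0.01. The receptors FGFR1 (-1.17) and IGF2R (-0.81) were lower at an unadjusted p under 0.05 and the ligand FGF2 (0.39) was higher. Of 32 bright phosphatase genes 21 were higher and 11 lower, with PTPN12 at -0.83. At an unadjusted p under 0.05, 2 of the 32 were lower and 1 was higher.

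Transcription factors of the KLF and SP family had 5 of 21 measured members below control at an unadjusted p under 0.05, against 3.24% of all genes. The bright ones were KLF7 (-0.66), KLF13 (-0.56) and KLF4 (-0.64), 3 of the family's 6 bright members against 4.76% of bright genes, with a median of -0.38 over the 6. KLF7 was at 11.59, 11.86 and 11.64 in glycyrrhizin cells and 12.34, 12.43 and 12.30 in control cells, without overlap (adjusted p 0.0640 with the variance trend, limma). The dim ones were KLF8 (-1.28) and SP5 (-1.26). HEY1, a Notch target, differed by -0.70 and CTNNB1, beta-catenin, by -0.77. The 13 bright nuclear receptors split 7 higher and 6 lower, none at an unadjusted p under 0.05, and of 3 bright hepatic factors none reached it either.

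In the cell cycle lists bright and dim medians differed. The 23 bright cyclin and kinase genes had a median of 0.05 and the 29 dim ones -0.14. The 11 bright replication genes had a median of 0.16 and the 29 dim ones -0.11, and the 9 bright mitosis genes had one of -0.03. No bright gene of these 3 lists had an unadjusted p under 0.05. Of 12 bright apoptosis genes and 8 bright p53 targets none had an unadjusted p under 0.05. Among translation factors EIF3E, an initiation factor subunit, was at 10.95, 11.10 and 10.37 in glycyrrhizin cells and 12.10, 11.35 and 11.81 in control cells (-0.95, unadjusted p 0.0045, limma), and the stress kinase EIF2AK3, known as PERK, differed by -0.78. The 14 bright genes of the integrated stress response had a median of -0.07, and the 33 bright chaperones one of -0.06 with none at an unadjusted p under 0.05.

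Cytoskeletal and junction genes included DYNC2LI1 (-0.66), DYNLL1 (-0.69) and DCTN2 (-0.77) of the dynein machinery among 37 bright tubulin and motor genes with a median of -0.03. Of the 37, 3 were lower and 0 higher at an unadjusted p under 0.05, against 4.76% and 2.33% of bright genes. The junction protein TJP1 differed by -0.58, whereas the desmosomal DSC1 (0.72) and the cadherin CDH3 (0.48) were higher. Among matrix genes COL17A1 differed by 0.68 and COL16A1 by -1.24. Of 14 bright chloride channel genes, CLCN2 included, 7 were higher and 7 lower, and ANO8 (0.42) and CLCA1 (0.42) were higher at an unadjusted p under 0.05. Of 17 bright potassium channel genes 12 were higher, with a median of 0.08. Over all 82 measured, 6 were higher and 0 lower at an unadjusted p under 0.05 (limma). Over all genes the shares were 2.46% higher and 3.24% lower. Of the 6, 5 were dim, and none passed the adjusted threshold. Of 12 bright calcium and sodium channel genes 8 were higher, with a median of 0.10.

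**Figure D3:**
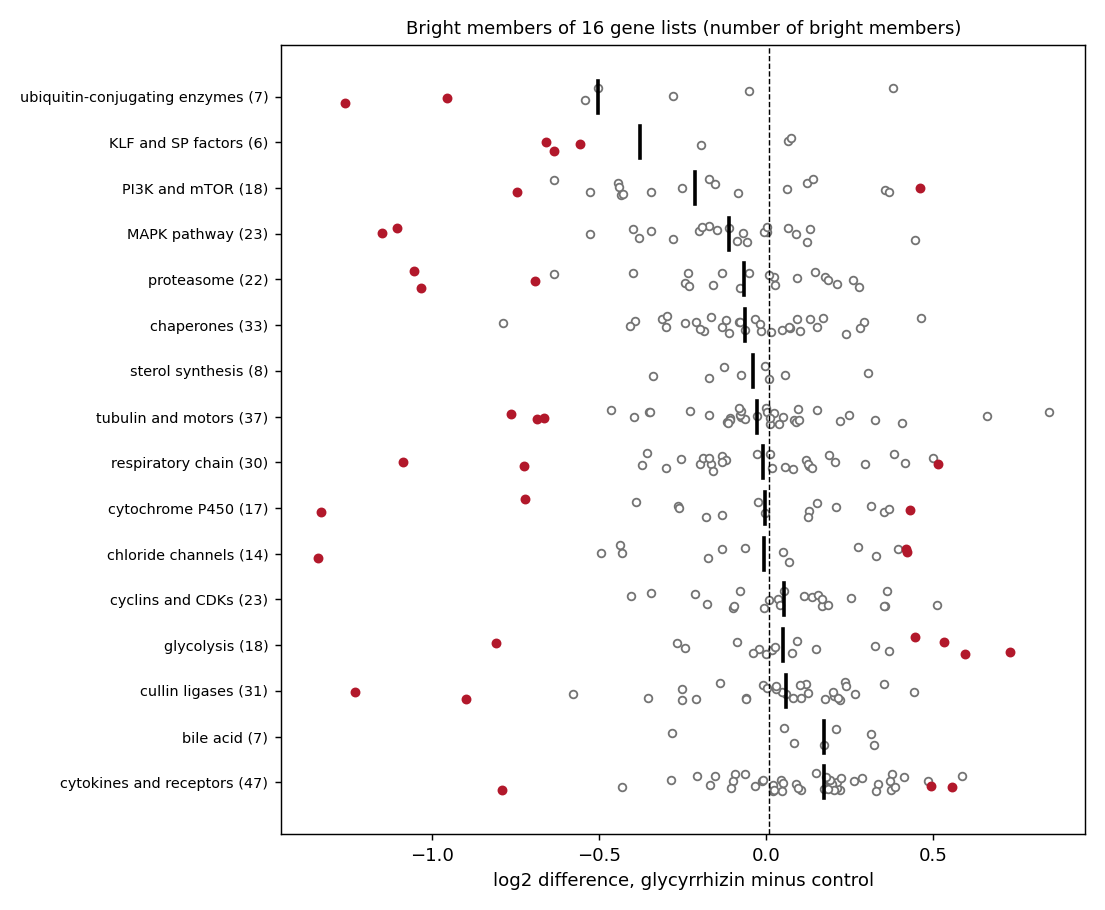
Log2 difference, glycyrrhizin minus control, of the bright members of 16 gene lists (points) with their median (bar), and the median of all 3904 bright genes (dashed line at 0.01). Filled points had an unadjusted p under 0.05. The conjugating enzymes (median -0.50) and the KLF and SP factors (-0.38) lie furthest left of the 16 lists, the cytokines (0.18) and bile acid genes (0.17) furthest right. Some lists not drawn had bright medians further out. Among them were the aryl hydrocarbon receptor pathway (-0.72, 3 bright genes), NF-kB (0.40, 6) and interferon-induced genes (0.33, 3).

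Glycyrrhizin was also compared with the mean of silymarin and ursodeoxycholic acid, each at 25 µM like glycyrrhizin, to show which genes set it apart from the other agents. Silymarin is the flavonolignan extract of milk thistle, and ursodeoxycholic acid is a hydrophilic bile acid. No gene of 13881 passed (0%) in limma at 8 residual degrees of freedom, 1037 had an unadjusted p under 0.05, and 23 passed with the variance trend (0.166%), 14 lower and 9 higher in glycyrrhizin cells, all of them bright. Of those 23, 7 also passed with the variance trend against control. The comparisons share the glycyrrhizin arrays, so this overlap is a description.

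The genes of smallest p on the low side were NCAM1, CYP1B1, MIEN1, MTERF3 and HIPK3. NCAM1 averaged 9.14 ± 0.35 in glycyrrhizin cells, 10.42 ± 0.11 in silymarin cells, 10.42 ± 0.15 in ursodeoxycholic acid cells and 10.32 ± 0.13 in control cells (log2, SD, n = 3 each). Its difference from the mean of the other agents was -1.28 (SE 0.18, adjusted p 0.160, 0.00531 with the variance trend, limma). CYP1B1 averaged 8.11 ± 0.10 in glycyrrhizin cells against 9.77 in silymarin cells, 8.67 in ursodeoxycholic acid cells and 8.83 in control cells, a difference of -1.10 from the other agents' mean. MTERF3 averaged 9.35 in glycyrrhizin cells, 11.04 in silymarin cells, 10.02 in ursodeoxycholic acid cells and 10.63 in control cells. PSMB5 averaged 11.72 in glycyrrhizin cells, 13.08 in silymarin cells, 12.50 in ursodeoxycholic acid cells and 12.75 in control cells. In these 4 genes glycyrrhizin cells had the lowest mean of the 4 groups.

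The leading genes of the control comparison looked different beside ursodeoxycholic acid. MIEN1 averaged 10.48 in glycyrrhizin cells, 12.08 in silymarin cells, 10.73 in ursodeoxycholic acid cells and 12.03 in control cells. CLCN2 averaged 10.05 in glycyrrhizin cells, 11.46 in silymarin cells, 10.10 in ursodeoxycholic acid cells and 11.39 in control cells. CYP1A2 averaged 9.98 in glycyrrhizin cells, 11.27 in silymarin cells, 10.17 in ursodeoxycholic acid cells and 11.31 in control cells. The glycyrrhizin and ursodeoxycholic acid means of these 3 genes differed by at most 0.25 and lay more than 1 log2 unit below silymarin and control. SYNE2 averaged 9.85 in glycyrrhizin cells and 9.73 in ursodeoxycholic acid cells, with silymarin at 10.53 and control at 11.32. Its difference from the other agents' mean was -0.28 (adjusted p 0.795, limma).

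On the high side the 5 genes of smallest p were COL2A1, DCPS, SLC10A3, GNAI1 and PFKL. PFKL averaged 13.99 in glycyrrhizin cells, 13.02 in silymarin cells, 13.67 in ursodeoxycholic acid cells and 13.26 in control cells. SLC10A3 averaged 11.21 in glycyrrhizin cells, 10.45 in silymarin cells, 10.48 in ursodeoxycholic acid cells and 10.52 in control cells. COL2A1, the cartilage collagen, averaged 12.03 in glycyrrhizin cells, 10.79 in silymarin cells, 11.47 in ursodeoxycholic acid cells and 12.05 in control cells. DCPS, the scavenger decapping enzyme, averaged 11.44 in glycyrrhizin cells, 8.41 in silymarin cells, 11.38 in ursodeoxycholic acid cells and 11.25 in control cells. Its difference of 1.55 from the other agents' mean thus came with a low silymarin mean and an ursodeoxycholic acid mean near that of glycyrrhizin. GNAI1, an inhibitory G protein subunit, was dim.

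**Figure D4:**
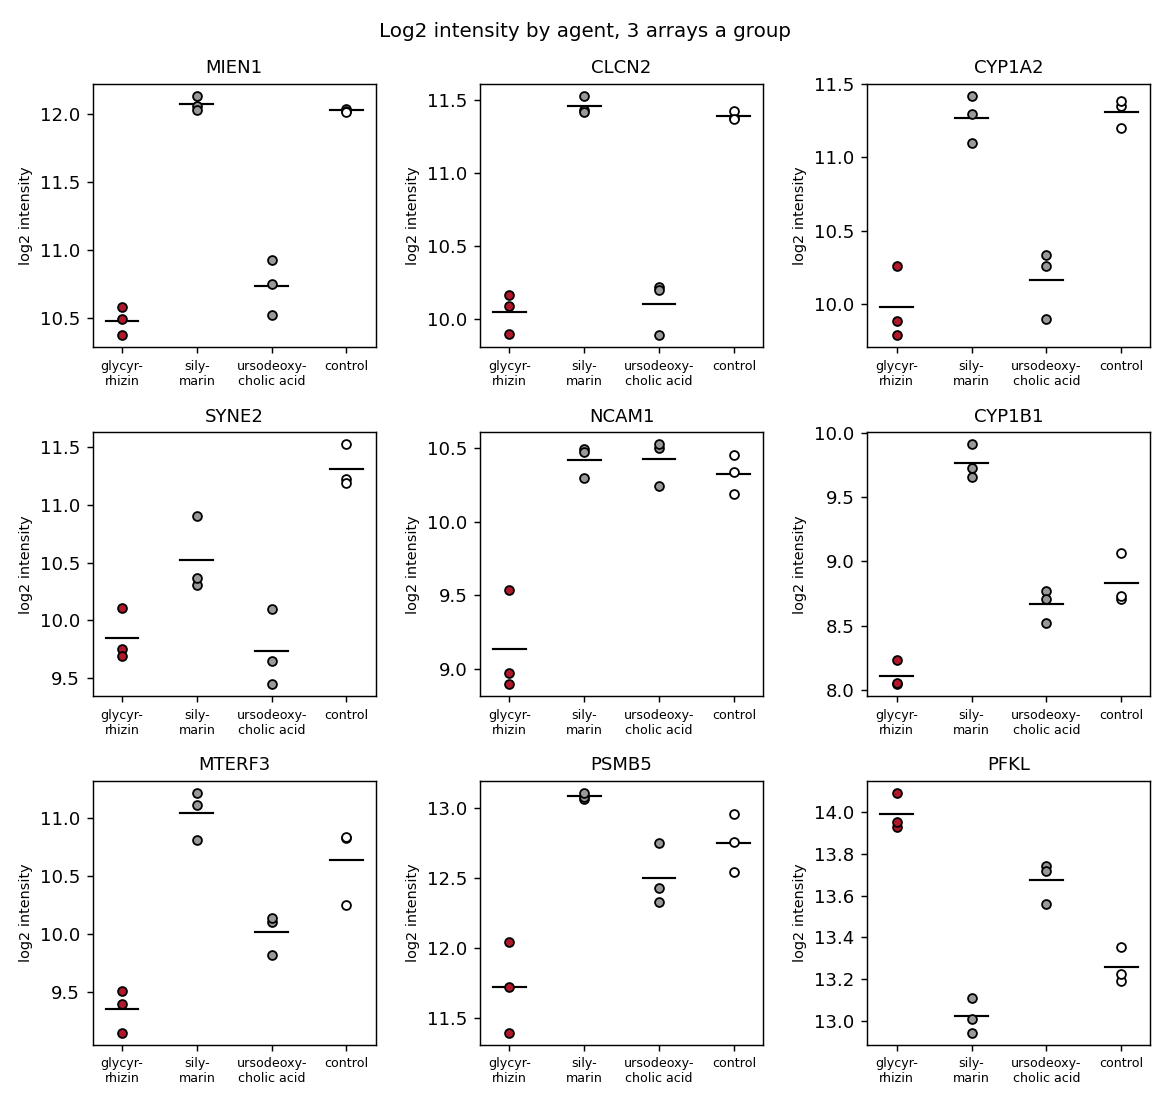
Log2 intensity of 9 genes on each of the 12 arrays, by group in the order glycyrrhizin, silymarin, ursodeoxycholic acid and control, with bars at the means. MIEN1, CLCN2, CYP1A2 and SYNE2 are low in glycyrrhizin and ursodeoxycholic acid cells, NCAM1, CYP1B1, MTERF3 and PSMB5 are lowest in glycyrrhizin cells, and PFKL is highest there.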

How the data were processed

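Total RNA of 12 HepG2 samples was amplified, labelled with Cy5 and hybridised to 1-colour oligonucleotide arrays, per the labels' protocols. The deposited values are linear intensity values of 1 to 65221, already brought to a nearly common distribution, and the submitters' processing notes name limma. Which scanner and background correction were used, and in which order, is not known here. Intensities were converted to log2. Probes were named through the platform annotation, with 2355 older symbols updated through RefSeq, and the brightest probe stood for each of 1674 genes with several.

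limma 3.58.1 in R 4.3.3 fitted 1 mean per group over the 12 arrays, with 8 residual and 2.71 prior degrees of freedom, and p-values were adjusted by Benjamini-Hochberg over 13881 genes. The fit was tested on simulated data with known differences. Precision is limited by 3 arrays a group and by the spread between them. Named genes were, by rule, the 12 bright and 5 dim genes of smallest p in each direction, genes called with the variance trend, leading list members, leading genes of the comparison with the other agents, and known glycyrrhizin targets. DNPH1, TAF5L, PLA2G5, HAT1 and ERBB2 were named outside that rule. The groups, members and gene lists were chosen with earlier results of these data known. A total of 97 gene lists, cell type markers included, were summarised. The shares given for single lists were not adjusted for that number. 11911 probes without a symbol were kept apart.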

Additional observations from a re-analysis of the deposited data

Results flagged for a closer look

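Among 11911 probes without a gene symbol, which the comparison of genes did not use, 7 passed with the variance trend (limma, adjusted p under 0.05 over those probes), 6 lower and 1 higher in glycyrrhizin cells. Without the variance trend 0 passed, and 586 had an unadjusted p under 0.05. The probe of smallest adjusted p differed by -1.41 (SE 0.19). They are given as values because no gene could be assigned.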

How the results depend on the processing

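Against control, 1 gene passed the threshold, 0 with the replicate block (MIEN1 adjusted p 0.194), 0 with the glycyrrhizin and control arrays only, 17 with the variance trend, 15 with bright genes alone, 2 with an offset of 16, 7 with an offset of 50, 3 with array weights and 0 to 0 without 1 array. With settings chosen after seeing the data it was 0 with the spread estimated over all probes and 0 with the lowest-weighted silymarin and ursodeoxycholic acid arrays left out. With the variance trend, 4 to 58 genes passed without 1 array (6 without glycyrrhizin replicate 3, 7 without control replicate 1 and 5 without control replicate 3), 15 with the replicate block, and 16 to 17 with an offset. The same-numbered glycyrrhizin and control arrays deviated together with correlations of -0.08, 0.09 and -0.19, so the numbers were not taken as pairs. Bright genes past 2-fold lower were 24 to 80 without 1 array. Bright genes lower at an unadjusted p under 0.05 were 282 with the variance trend and 90 to 292 without 1 array. Those higher were 194 with the variance trend, 200 with bright genes alone, 164 with an offset of 50 and 27 to 103 without 1 array. Against the other agents, 23 genes passed with the variance trend, 38 with bright genes alone and 8 with an offset of 50. Of 129 genes named, 121 kept their direction in the 18 alternatives. The other 8 were small differences without a call: RELA gave -0.18 with the mean of the probes and NFKB1 0.04 with array weights. Without 1 array the differences spanned 0, at -0.25 to 0.10 for APOB, -0.20 to 0.42 for CYP3A4, -0.04 to 0.91 for NR3C1, -0.34 to 0.12 for TLR4, -0.14 to 0.29 for RELA, -0.15 to 0.09 for NFKB1, -0.09 to 0.07 for COL2A1 and -0.03 to 0.42 for DCPS. The cause of these differences between settings was not tested. Signal limits the dim genes, whose spread between arrays was 0.507 on the log2 scale, against 0.244 in bright genes.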
